A study of Mus musculus with 20 samples.

Results

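Vdr, Dhrs3, Rara, Rarg, Rxra, Rxrb and Cyp27b1 are the receptors and enzymes through which a T cell senses and handles vitamin D and vitamin A. Their probes were picked by the gene name in the array annotation. This gave 9 probes for 7 genes among the 39429 probes of the array, and 8 of the 9 were among the 22264 probes that could be tested. RNA was measured on 20 one-colour Agilent arrays of CD4 T cells sorted from mice of strain B6.Cg-Foxp3<tm1Mal>, whose GFP marks cells that express Foxp3. All groups shared this strain, an age of 8 to 14 weeks and pools of 8 to 15 mice of mixed sex per sample. Naive T cells (GFP-PD1loGL7-), follicular helper (TFH) cells (GFP-PD1hiGL7+), regulatory T (Treg) cells (GFP+PD1loGL7-) and follicular regulatory (TFR) cells (GFP+PD1hi, with or without GL7) were taken out of peripheral lymph nodes (pLN) after subcutaneous immunisation with KLH in Alum. The pLN groups had 2 arrays each on day 12 (d12) and 1 each on day 25 (d25). From Peyer's patches (PP), whose labels name no immunisation, came Treg and TFR cells and also TFH cells split by GL7, again 2 arrays for each. These make 12 groups, and the PP had no naive group.

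Vitamin D acts through Vdr, a nuclear receptor that binds DNA together with a retinoid X receptor (Rxra or Rxrb), and Cyp27b1 makes its active ligand. Vitamin A acts as retinoic acid, which binds the retinoic acid receptors (Rara and Rarg), again as partners of the retinoid X receptors. Dhrs3 works one step earlier, where it turns retinal back into retinol and so limits how much retinoic acid is made. The gut is known as a tissue rich in retinoic acid, which gives T cells their gut-homing receptors.

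The measurements rest on 60-base probes printed on the array, and their sequences show what was read. For the 4 genes that differed among groups, 30 bases of each probe are given from 5′ to 3′ on the strand of the transcript. Capitals mark AATAAA, the letters of the usual polyadenylation signal, which were looked for on this strand only and lay in 3 of the 9 probes.
Vdr, A_52_P334562, chr15:97685136-97685195: cagcaagatttcccaagataggagaatcct
Dhrs3, A_55_P2020128, chr4:144517485-144517544: gcagaaacgcaaAATAAAgaggtggctttc
Rara, A_55_P2095342, chr11:98835350-98835409: atattaattctcgttggttttgtttttatt
Rara, A_55_P2095345, chr11:98836197-98836256: tactggagaaagAATAAAgttctatttatt
Rarg, A_55_P2151056, chr15:102065371-102065430: ctatttttgcaaAATAAAgtgatggaaact
Positions are those of the whole probes in the array annotation (mouse assembly mm9), and Vdr and Rarg lie on the minus strand. No gene models of mm9 were used here, so exons and untranslated regions were not assigned. The 2 Rara probes start 847 bases apart, and the annotation places both on 1 transcript.

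An intensity is given for each array in array units, scaled so that the 75th percentile of an array is 1500 and with a lower limit of 20. A probe counted as detected where at least 3 of its 4 printed copies were well above background. Levels were compared within a probe, apart from the difference of the 2 Rara probes within an array and the sums over marker probes. Differences were tested with limma over all tested probes, and called where the adjusted p was under 0.05 and the log2 fold change reached 1 in either direction. Each array stands for 1 sorted pool of mice. Slides 1 and 2 held the d12 arrays, slide 3 the d25 arrays, slides 4 and 5 the PP arrays, in that order of replicate. The RNA input differed as well, with 50 ng for the first array of a pair and 40 ng for the second. The p-values therefore measure the spread between pools together with that of slide and input. With the slide modelled as random, the slide correlation was 0.74, and the main model held no term for it. PP and pLN arrays never shared a slide, so tissue and slide cannot be told apart where a cell type is compared between tissues.

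All 5 T cell markers were detected on every array. PP arrays of slide 4 also carried markers of other cells. The summed intensity of 9 epithelial markers was 15872 to 43439 on slide 4 against 1701 to 2749 on slide 5, and that of 12 B cell markers was 24896 to 172972 against 6502 to 14854. On slides 1 to 3 the epithelial sum was 873 to 2708 and the B cell sum 4576 to 25910, which overlapped that of slide 4. Slide 5 still detected 6 to 7 epithelial and 9 to 11 B cell markers per array, against 2 to 5 and 5 to 12 on slides 1 to 3. The part of such cells in the receptor levels was not tested. Slide 5 gives the second value of each PP pair below. In bulk samples, fewer cells of a type and less RNA per cell cannot be told apart.

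**Figure D1:**
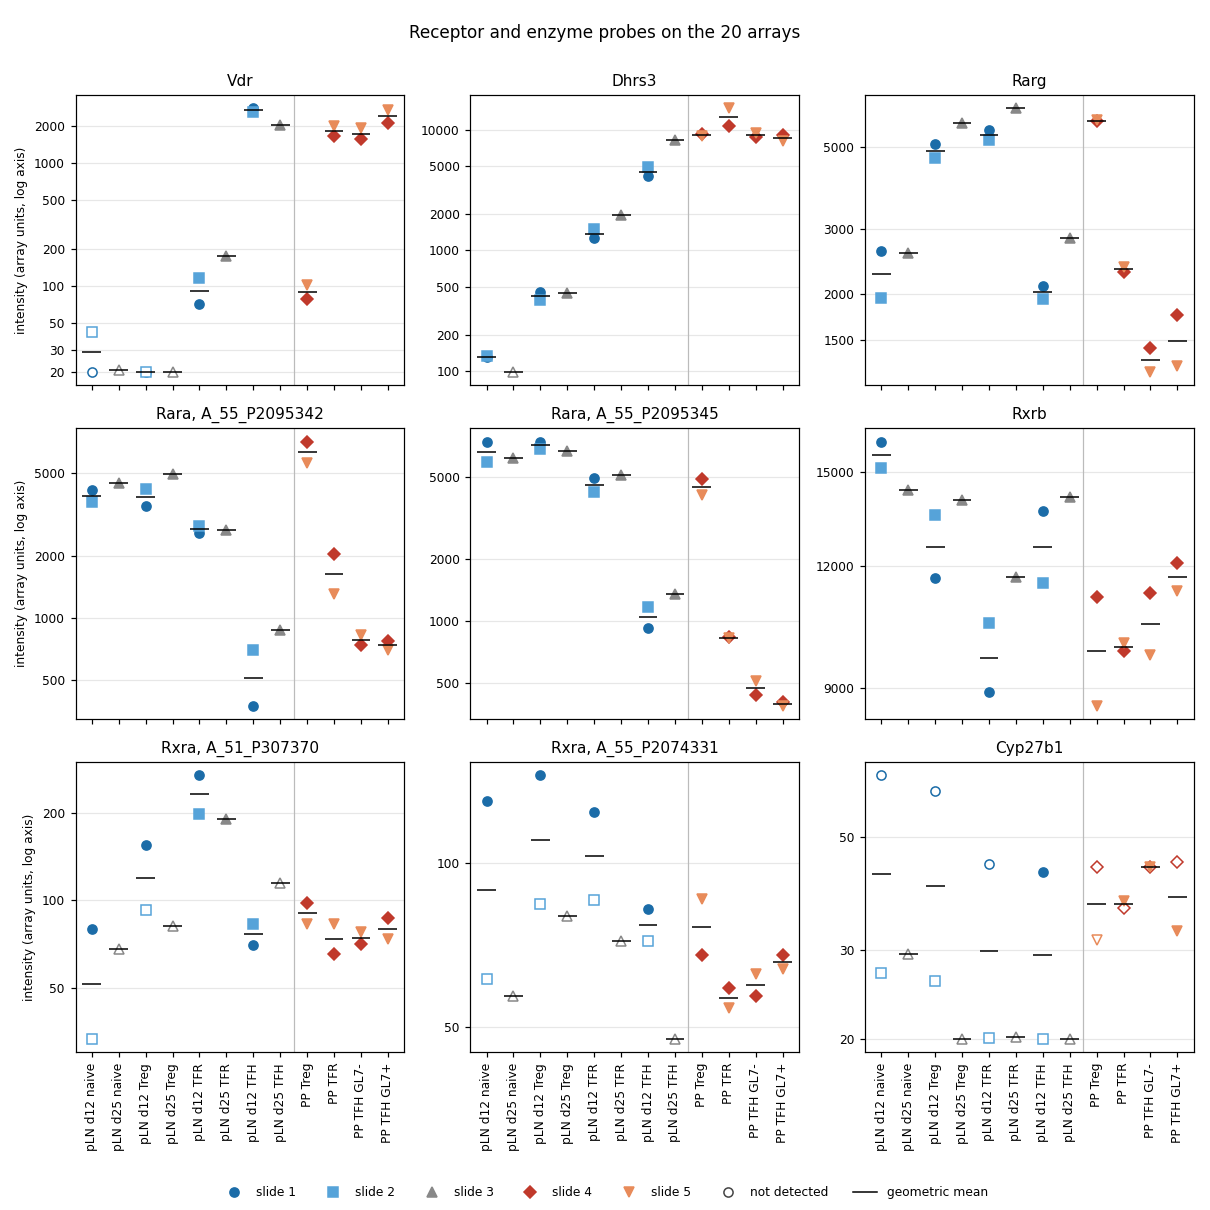
Intensity (log axis, array units) of the 9 receptor and enzyme probes on each of 20 arrays, by group, with the marker shape giving the slide, open markers for arrays where the probe was not detected and a bar for the geometric mean of the group. Vdr read 20 to 42 in naive T cells of pLN, below background, and 1552 or more in TFH cells of both tissues. Both Rara probes were lower in these TFH cells than in naive T cells of pLN. The PP had no naive group.

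limma's F test called 5 of the 8 tested probes as different among the 12 groups (Vdr, Dhrs3, both Rara probes and Rarg) at p under 0.001 and adjusted p under 0.005, where 17.3% of all tested probes were called. The Rxra probes and Rxrb made up the rest, and Cyp27b1 did not enter the test. The paper had already reported from these arrays that Vdr and Dhrs3 differ among the cell groups. This count and the counts by comparison below are therefore not independent of earlier results.

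Vdr, the vitamin D receptor, was highest in TFH cells. In pLN on d12 its intensity was 20 and 42 in naive T cells, 20 and 20 in Treg cells, 72 and 115 in TFR cells and 2790 and 2612 in TFH cells. The groups did not overlap apart from naive and Treg cells, both of which were below background on all their arrays. On d25 the single arrays read 21 in naive T cells, 20 in Treg cells, 175 in TFR cells and 2042 in TFH cells, the same order. TFH cells were at least 43.9-fold above naive T cells (measured log2 means 11.40 and 4.86, adjusted p = 1.85e-06) and at least 63.6-fold above Treg cells (adjusted p = 1.92e-06), both as lower limits because the dimmer group was below background. TFR cells were at least 2.14-fold above Treg cells (adjusted p = 0.00281) and 29.7-fold below TFH cells (log2 fold change -4.89, SE 0.34, adjusted p = 3.53e-05).

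In PP the TFR cells stood with the TFH cells. Vdr read 1653 and 1983 in TFR cells, 2121 and 2702 in GL7+ TFH cells, 1552 and 1924 in GL7- TFH cells, and 79 and 102 in Treg cells. The TFR range overlapped that of GL7- TFH cells, lay under that of GL7+ TFH cells and was far above that of Treg cells. The log2 fold change of TFR over Treg cells was 4.34 (SE 0.34, adjusted p = 5.12e-05) and that of TFR over GL7+ TFH cells was -0.40 (95% interval -1.17 to 0.36, adjusted p = 0.964). GL7+ TFH cells differed from Treg cells by 4.74 (SE 0.34, adjusted p = 1.55e-05) and from GL7- TFH cells by 0.47 (95% interval -0.29 to 1.23, adjusted p = 1).

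Between tissues, Vdr was 4.32 higher on the log2 scale in TFR cells of PP than of pLN d12 (SE 0.34, adjusted p = 0.000107), and 4.45 higher without slide 4 (adjusted p = 0.0119). The TFH cells differed by -0.17 (95% interval -0.94 to 0.59, adjusted p = 0.862). In Treg cells it was at least 2.11-fold higher in PP (adjusted p = 0.00945), a call that was lost without either pLN Treg array (adjusted p 0.0776 and 0.0638), without PP Treg replicate 2 (0.0705), when slide 4 was dropped (0.0978) and when the slide was modelled as random (0.0592). The difference between tissues was larger in TFR than in TFH cells by 4.49 (SE 0.48, adjusted p = 0.00332), which left the call but not the size without slide 4 (4.45, adjusted p = 0.14, with 1 array per PP group). The corresponding difference between TFR and Treg cells, 2.16, missed the threshold (adjusted p = 0.107) but was called with the slide as a fixed block (adjusted p = 0.014), and one side of it was below background. That block raised the calls of this kind from 0.548% to 4.58% of all tested probes.

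Dhrs3, the retinal reductase, rose along a different line. In pLN on d12 it read 130 and 134 in naive T cells, 454 and 388 in Treg cells, 1263 and 1503 in TFR cells and 4114 and 4914 in TFH cells, 4 groups in a row without overlap. The steps were called from naive to Treg cells (a log2 rise of 1.67 with SE 0.19 and adjusted p = 0.000731), from Treg to TFR cells (1.72, adjusted p = 0.000543) and from TFR to TFH cells, where TFR cells were lower (log2 fold change -1.71, adjusted p = 0.000586). TFH cells stood 5.09 above naive T cells (SE 0.19, adjusted p = 3.34e-07), a fold of 34.1. The d25 arrays read 99, 445, 1970 and 8159 in the same order.

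In PP this order was gone. Dhrs3 read 9230 and 8917 in Treg cells, 10793 and 15052 in TFR cells, 8990 and 8109 in GL7+ TFH cells and 8665 and 9400 in GL7- TFH cells. The Treg range overlapped those of both TFH groups, and the TFR arrays were the highest. The log2 fold changes of GL7+ TFH over Treg cells (-0.09, 95% interval -0.52 to 0.34), TFR over Treg cells (0.49, 0.06 to 0.92) and TFR over GL7+ TFH cells (0.58, 0.15 to 1.01) all missed the threshold after adjustment (adjusted p 0.895, 0.149 and 0.19).

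All PP groups were above the pLN d12 group of the same cell type, although the single d25 TFH array, at 8159, lay within the range of GL7+ TFH cells of PP. The log2 difference was 4.43 in Treg cells (SE 0.19, adjusted p = 5.26e-06), 3.21 in TFR cells (SE 0.19, adjusted p = 2.67e-05) and 0.93 in TFH cells (95% interval 0.50 to 1.35, adjusted p = 0.0229, under the fold threshold). Without slide 4 these were 4.41, 3.45 and 0.85 (adjusted p 0.00329, 0.00528 and 0.129). Against TFH cells, the tissue difference was larger by 3.51 in Treg cells (SE 0.27, adjusted p = 0.000436) and by 2.28 in TFR cells (SE 0.27, adjusted p = 0.00609). Without slide 4 these became 3.56 and 2.60 with adjusted p 0.0506 and 0.0645. Treg and TFR cells differed from each other in this respect by -1.22, not called (adjusted p = 0.104) but called with the fixed block (adjusted p = 0.0219).

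Rara, the main retinoic acid receptor of T cells, went the other way in TFH cells. Its probe A_55_P2095345 read 7380 and 5915 in pLN d12 naive T cells, 7451 and 6887 in Treg cells, 4951 and 4255 in TFR cells and 926 and 1170 in TFH cells. The probe A_55_P2095342 read 4136 and 3616, 3491 and 4201, 2561 and 2795, and 378 and 700 in the same groups. On both probes the TFH arrays were lowest, the TFR arrays came next and the naive and Treg arrays overlapped. TFH cells were lower than naive T cells (log2 fold changes -2.67 and -2.91, adjusted p = 9.07e-06 and 8.15e-05) and lower than Treg cells (log2 fold changes -2.78 and -2.90, adjusted p = 1.24e-05 and 0.000138). TFR cells were above TFH cells by 2.14 and 2.38 (adjusted p = 0.00013 and 0.00104), and against Treg cells their values of -0.64 and -0.52 were not called (adjusted p = 0.0514 and 0.358).

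In PP, Rara was high in Treg cells alone. A_55_P2095345 read 4914 and 4100 in Treg cells, 836 and 822 in TFR cells, 404 and 388 in GL7+ TFH cells and 436 and 507 in GL7- TFH cells. A_55_P2095342 read 7111 and 5594, 2029 and 1304, 772 and 704, and 744 and 831. TFR cells lay under Treg cells (log2 fold changes -2.44 and -1.96, adjusted p = 4.69e-05 and 0.00196). Without slide 4 the second of these was -2.10 (adjusted p = 0.0625). GL7+ TFH cells lay further under Treg cells (log2 fold changes -3.50 and -3.10, adjusted p = 2.67e-06 and 8.71e-05). TFR cells stood above GL7+ TFH cells by 1.07 and 1.14, of which only the first was called (adjusted p = 0.00948 and 0.0722), and both with the fixed block (0.00407 and 0.0208). The call on the first was lost when any 1 of the 4 arrays was left out (adjusted p 0.0529 to 0.0843).

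The 2 Rara probes disagreed on the tissues. A_55_P2095345 was lower in PP in TFR cells (log2 fold change -2.47, adjusted p = 8.5e-05) and in TFH cells (-1.39, adjusted p = 0.00324, and 0.0696 without slide 4), and its value in Treg cells was -0.67 (adjusted p = 0.104). A_55_P2095342 gave -0.72, 0.52 and 0.72 for TFR, TFH and Treg cells, with no call (adjusted p = 0.137, 0.39 and 0.294). Within an array the log2 of the probe A_55_P2095345 minus that of the other had medians of 1.02, 0.71 and 0.54 on the pLN slides 1 to 3 and of -0.85 and -0.69 on the PP slides 4 and 5. It was above 0 on every pLN array and below 0 on every PP array. Tissue and slide cannot be told apart here, and a statement on Rara between PP and pLN rests on the probe chosen.

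**Figure D2:**
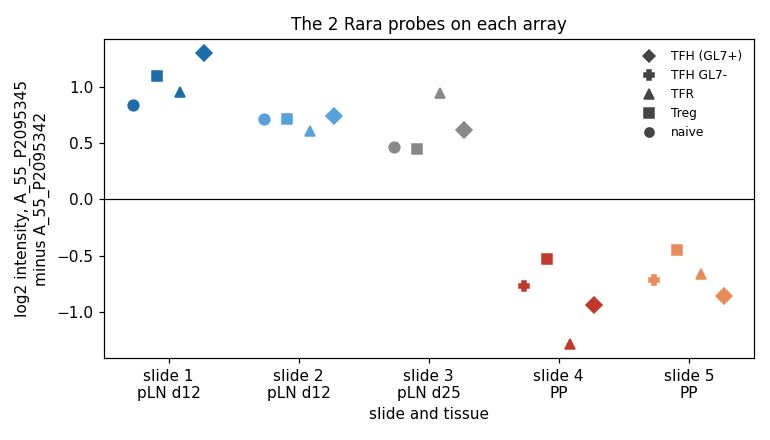
Difference of the log2 intensities of the 2 Rara probes on each of the 20 arrays (vertical axis, A_55_P2095345 minus A_55_P2095342), by slide and tissue, with the marker shape giving the cell type. The 12 pLN arrays lie between 0.45 and 1.29 and the 8 PP arrays between -1.28 and -0.45.

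The change from Treg to TFR cells was more negative in PP than in pLN by -1.79 for A_55_P2095345 (SE 0.26, adjusted p = 0.0179) and by -1.44 for A_55_P2095342 (adjusted p = 0.245, and 0.046 with the fixed block). The call on the first was lost in 8 of 16 alternatives, among them leaving out either pLN Treg array, pLN TFR replicate 1, either PP TFR array or PP Treg replicate 1 (adjusted p 0.0565 to 0.0982).

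Rarg, a further retinoic acid receptor, was a mark of Foxp3+ cells in pLN. On d12 it read 2617 and 1951 in naive T cells, 2104 and 1936 in TFH cells, 5086 and 4655 in Treg cells and 5553 and 5219 in TFR cells. Naive and TFH arrays overlapped, and all 4 Foxp3+ arrays were above them. The d25 arrays read 2573, 2832, 5802 and 6360 in the same order. TFR cells were above TFH cells by 1.42 (SE 0.20, adjusted p = 0.00189) and TFH cells were under Treg cells (log2 fold change -1.27, adjusted p = 0.00178). Treg cells were above naive T cells by 1.11 (adjusted p = 0.00939), a call lost without pLN Treg replicate 1 (1.04, adjusted p = 0.0978) or naive replicate 2 (0.89, adjusted p = 0.08). TFH against naive (-0.16) and TFR against Treg cells (0.15) were not called (adjusted p = 0.669 and 0.768).

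In PP, Rarg stayed high in Treg cells, at 5855 and 5894, and the TFR arrays were at 2290 and 2370. GL7+ TFH cells read 1749 and 1277 and GL7- TFH cells 1428 and 1229. TFR cells lay under Treg cells (log2 fold change -1.33 with SE 0.20, adjusted p = 0.00154, and 0.0529 without slide 4), as did GL7+ TFH cells (log2 fold change -1.97, adjusted p = 0.000106). TFR cells of PP were lower than those of pLN d12 (log2 fold change -1.21, SE 0.20, adjusted p = 0.00324). The change from Treg to TFR cells differed between the tissues by -1.48, which missed the threshold (adjusted p = 0.0552) and was called with the fixed block (adjusted p = 0.00745).

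**Figure D3:**
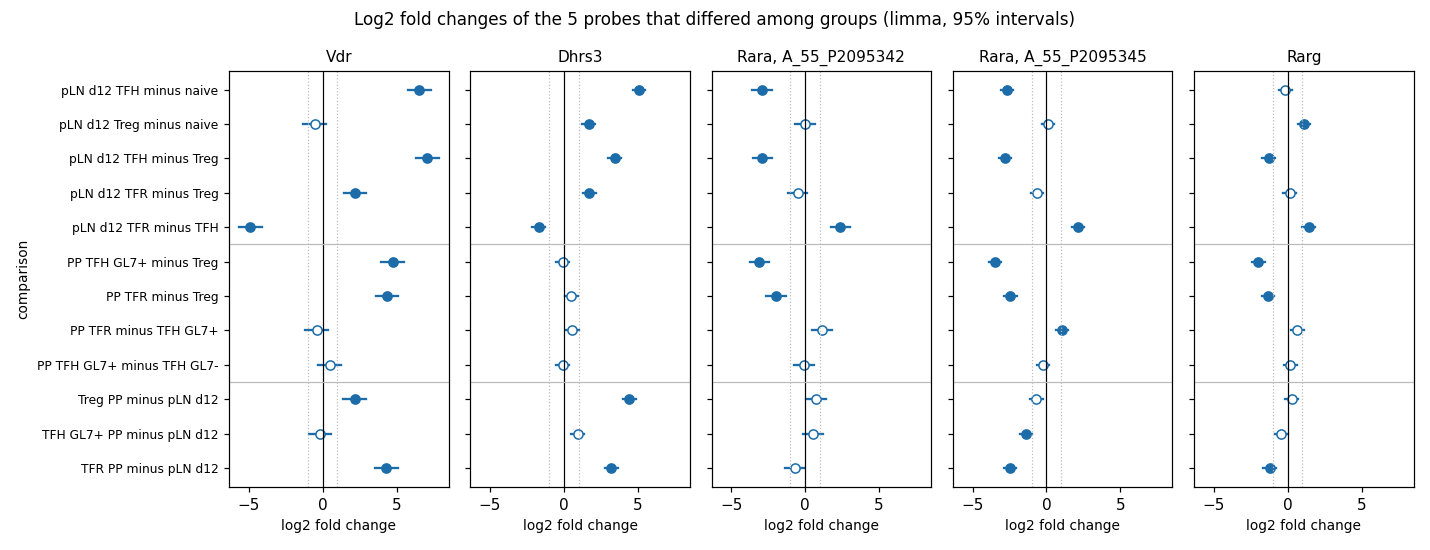
Log2 fold changes (horizontal axis) with 95% intervals of the 5 probes called among the 12 groups, for 12 comparisons (vertical axis), with filled markers where the difference was called, grey rules between pLN, PP and tissue comparisons and dotted lines at 1 and -1. In the comparison of TFR cells between tissues Vdr and Dhrs3 lie at 4.32 and 3.21, and Rara A_55_P2095345 and Rarg at -2.47 and -1.21.

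The retinoid X receptors, which every other receptor here needs as a partner, did not follow these patterns. Rxrb was detected on all 20 arrays with a range of 8634 to 16098, and none of the 19 comparisons was called for it. Rxra was dim. Its probe A_51_P307370 was detected on 15 arrays and read 269 and 198 in pLN d12 TFR cells, where all other arrays of replicated groups were at 155 or less. It was called above TFH cells in pLN (log2 fold change 1.60, adjusted p = 0.0354) and lower in PP than in pLN TFR cells (-1.65, adjusted p = 0.0161). The first call was lost in 9 and the second in 5 of 12 alternatives, among them leaving out any of the 4 arrays for the first (adjusted p 0.0888 to 0.246) and leaving out pLN or PP TFR replicate 1 for the second (0.115 and 0.092). The other Rxra probe, 3465 bases further along the transcript, was detected on 12 arrays at 145 or less and had no call.

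Cyp27b1, which makes the active form of vitamin D, was at the limit of the array. It read 20 to 66, was detected on 4 of 20 arrays and did not enter the test. When all probes were tested it had no call in the 19 comparisons.

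The calls were counted for each comparison. In pLN d12, 4 of 8 tested probes were called between TFH and naive T cells (14.7% of all tested probes), 5 between TFH and Treg cells (10.5%), 6 between TFR and TFH cells (5.01%), 2 between TFR and Treg cells (8.35%) and 2 between Treg and naive T cells (3.76%). In PP, 4 were called between GL7+ TFH and Treg cells (9.87%), 4 between TFR and Treg cells (9.25%), 1 between TFR and GL7+ TFH cells (3.44%) and 0 between GL7+ and GL7- TFH cells (0.00898%). There limma gave 0 members an unadjusted p under 0.05 (1.14% of all tested probes). The methods' t-test also gave 0 members, against 556 of the 22264 tested probes. Between tissues, 2 were called in Treg cells (2.24%), 1 in TFH cells (4.54%) and 5 in TFR cells (11.1%). The tissue difference was called to vary between TFR and Treg cells for 1 probe (0.548%), between TFR and TFH cells for 2 (0.611%) and between Treg and TFH cells for 1 (0.323%). These comparisons share groups and the probes share genes, so the counts are not independent of each other.

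Day 25 could be set against day 12 with 1 array per group only, on a slide of its own, so that day and slide cannot be told apart. limma called 0 of 8 probes in each of the 4 cell types, against 0.00898% (naive), 0.0314% (TFH), 0% (Treg) and 0.00898% (TFR) of all tested probes. An unadjusted p under 0.05 was found for 1 probe in TFH and 1 in TFR cells, and for 0 in naive and Treg cells, against 2.85%, 3.65%, 1.16% and 3.5% of all tested probes in TFH, TFR, naive and Treg cells. The 2 were Dhrs3 in TFH cells (0.86 higher on d25) and Vdr in TFR cells (0.94 higher), both with an adjusted p of 1.

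Across all 20 arrays the log2 intensity of Vdr went with that of Dhrs3 (Pearson r = 0.83) and against those of Rara (-0.94 for A_55_P2095345 and -0.89 for A_55_P2095342). Rarg went with Rara (0.79 and 0.74) and against Vdr (-0.67). These are descriptions over arrays that share groups and slides. By the same measure the tested probes most like Vdr were those of Lnx2 (0.983), Cebpd (0.981), Vipr2 (0.981), Gm8075 (0.980) and H2al1o (0.976). Most like Dhrs3 were Lag3 (0.979), Asb2 (0.964), Maf (0.961), Ang3 (0.956) and Podnl1 (0.955), of which Maf is a transcription factor and Lag3 a surface receptor of activated T cells. For Rara A_55_P2095345 the nearest was Emp3 (0.994), followed by Eef1d, Esyt1, Col23a1 and Dnajc15 (0.976 to 0.985). For the other Rara probe these were Lppos, Sesn1, Rrad, Cdc42ep4 and Selplg (0.941 to 0.958), so the 2 probes shared none of their 5. Rarg was nearest to Fam89a, Gsto1, She, Eno3 and Lad1 (0.932 to 0.953), and Rxra A_51_P307370 to Prm2, Cdkn2a, Bcat1, Akap7 and Tnip3 (0.850 to 0.878).

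As Vdr and Dhrs3 were both higher in TFH than in naive and Treg cells of pLN, the sequence before their transcript starts is shown, from RefSeq (GRCm38.p6). Capitals mark half-sites of nuclear receptors, searched as AGGTCA or in its variant forms as AGTTCA, further as GGGTCA or finally as GGTTCA on both strands. Both windows end at the base before the start, and that of Dhrs3 is the most upstream of 3.
Vdr, chr15:97908297-97908546, minus strand: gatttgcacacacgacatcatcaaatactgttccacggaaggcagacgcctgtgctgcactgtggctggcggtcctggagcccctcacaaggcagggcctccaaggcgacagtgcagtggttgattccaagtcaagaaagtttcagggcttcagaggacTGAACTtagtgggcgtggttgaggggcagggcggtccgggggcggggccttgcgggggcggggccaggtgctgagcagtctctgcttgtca
Dhrs3, chr4:144892577-144892826, plus strand: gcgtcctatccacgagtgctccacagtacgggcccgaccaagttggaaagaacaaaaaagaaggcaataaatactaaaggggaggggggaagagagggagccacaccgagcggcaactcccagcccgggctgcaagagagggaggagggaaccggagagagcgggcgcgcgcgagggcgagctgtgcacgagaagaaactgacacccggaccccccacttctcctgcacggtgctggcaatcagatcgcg
Vdr had 1 half-site, on the opposite strand 91 to 86 bases before the start, and Dhrs3 had none in any of its 3 windows. Over the 300 bases around the start, 6 of 15 windows of the 7 genes held at least 1 half-site, and 14358 of 32851 windows of all genes did (43.7%). Direct repeats of these half-sites spaced by 2, 3 or 5 bases, the classical layouts for retinoic acid and vitamin D receptors, lay in 0 of the 15 windows and in 0.268%, 0.0396% and 0.0974% of all windows. Letters that are absent from these windows say nothing of sites elsewhere.

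The genes known to respond to retinoic acid were looked at as a list of 15, of which 12 could be tested. Between PP and pLN d12, 6 were higher and 1 lower in Treg cells (1.82% and 0.422% of all tested probes), 4 higher and 1 lower in TFH cells (2.36% and 2.18%), and 5 higher and 1 lower in TFR cells (5.74% and 5.39%). The median log2 difference of the 12 was 1.86, 0.37 and 1.06, against -0.05, 0.03 and 0.00 over all tested probes. The list holds Asb2 and Fut7, which the paper reported from these arrays to differ between the tissues. These counts and medians are therefore not independent of earlier results. Hic1, a transcriptional repressor, read 103 and 104 in pLN d12 Treg cells, 40 and 50 in TFR cells and 24 and 27 in TFH cells. In PP it read 4486 and 3015, 4287 and 6329, and 2183 and 2788 in Treg, TFR and GL7+ TFH cells. It was higher by 5.16 in Treg cells (adjusted p = 2.51e-05) and by 6.86 in TFR cells (adjusted p = 2.5e-06), and at least 60.7-fold in TFH cells (adjusted p = 5.66e-06). Another probe of Hic1 rose in all 3 as well, by 3.60, 4.24 and 3.26 in Treg, TFR and TFH cells.

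Cyp26b1, the enzyme that breaks down retinoic acid, was a PP Treg transcript. It read 2133 and 1964 in PP Treg cells, 27 and 36 in PP TFR cells, and was at 20 on all arrays of PP TFH and pLN TFH cells. PP Treg cells were at least 38.4-fold above pLN Treg cells (adjusted p = 1.6e-07), and PP TFR cells lay far under PP Treg cells (log2 fold change -6.05, adjusted p = 2.06e-07). Stra6, a retinol transporter, read 1096 and 1026 in PP Treg cells, 59 and 63 in PP TFR cells and 162 and 215 in pLN d12 Treg cells. It was higher in PP than in pLN Treg cells by 2.51 (adjusted p = 0.00756). This call was lost without PP or pLN Treg replicate 1 (adjusted p 0.0589 and 0.0794), when slide 4 was dropped (0.122) and when the slide was modelled as random (0.0967). In PP TFR cells, which shared the high Dhrs3 of PP Treg cells, Cyp26b1 was near the lower limit of the scale.

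Asb2, part of a ubiquitin ligase, read 281 and 209 in pLN d12 Treg cells and 6205 and 4605 in PP Treg cells, with 894 and 1060 against 24054 and 27504 in TFR cells. It was higher in PP by 4.46 in Treg (adjusted p = 0.00267, but 0.1003 when slide 4 was dropped and 0.067 when the slide was modelled as random) and by 4.72 in TFR cells (adjusted p = 0.000762). Another tested Asb2 probe gave -1.29 and -0.08 with no call (adjusted p 0.901 and 0.99), so the result belongs to 1 probe. Fut7, which makes selectin ligands, went down in PP in all 3 cell types, with 2972 and 1958 against 160 and 164 in Treg cells (log2 fold change -3.90, adjusted p = 0.00185), 9934 and 10235 against 268 and 343 in TFR cells (-5.05, adjusted p = 0.00017) and 2039 and 3111 against 97 and 104 in TFH cells (-4.64, adjusted p = 0.000775). Without slide 4 the values for Treg and TFH cells were -3.88 and -4.60 (adjusted p 0.0776 and 0.0569).

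**Figure D4:**
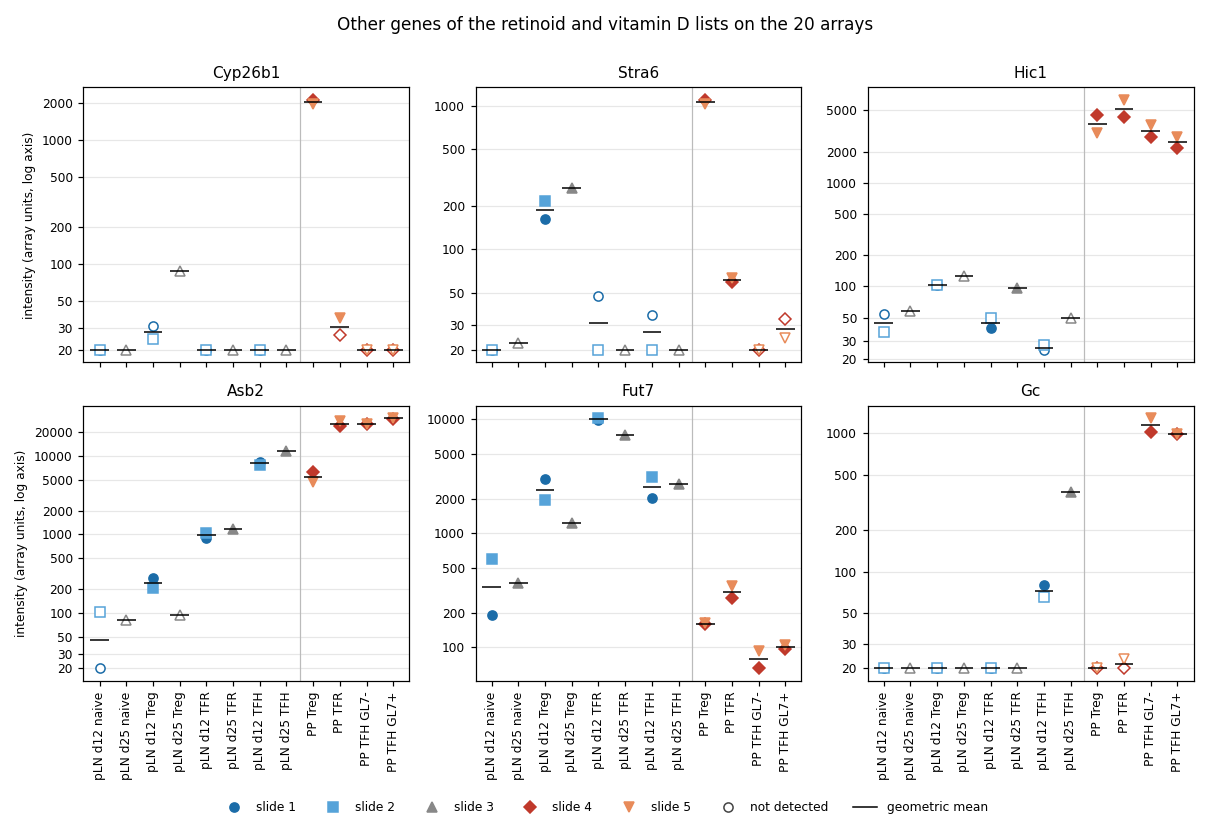
Intensity (log axis, array units) on each of the 20 arrays, by group, of 6 genes of the retinoid and vitamin D lists, with marker shape for the slide, open markers for arrays where the probe was not detected and bars for the geometric mean. Cyp26b1 reads 1964 or more on the PP Treg arrays and at most 88 elsewhere, and Hic1 2183 or more on all PP arrays.

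Among the 28 genes of retinoid metabolism and transport, 18 could be tested. In Treg cells 3 were higher in PP and none was lower (Aldh1a3 beside Cyp26b1 and Stra6), in TFR cells 3 were higher and 1 lower, and in TFH cells none was called. Of all tested probes 1.82% were higher and 0.422% lower in Treg cells, 5.74% and 5.39% in TFR cells and 2.36% and 2.18% in TFH cells. The medians over the list were 0.12, 0.21 and 0.35 in Treg, TFR and TFH cells, against -0.05, 0.00 and 0.03 over all tested probes. Aldh1a3, which makes retinoic acid, read 217 and 138 in PP Treg cells and 20 and 31 in pLN d12 Treg cells, at least 4.07-fold (adjusted p = 0.0092). It lost its call without PP or pLN Treg replicate 1 (adjusted p 0.0729 and 0.091) and without slide 4 (0.0856). Adh1, an alcohol dehydrogenase that can oxidise retinol, fell from 6776 and 6472 in naive T cells to 240 and 571 in TFH cells of pLN (log2 fold change -4.16, adjusted p = 0.00153).

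Of the 6 genes of vitamin D metabolism and transport only Cyp2r1 and Gc could be tested, and Cyp24a1, Cyp27a1, Lrp2 and Cubn were detected on no array. Gc, the vitamin D binding protein, was above 23 in TFH cells alone. It read 80 and 65 in pLN d12 TFH cells, 379 on d25, 995 and 988 in GL7+ and 1017 and 1294 in GL7- TFH cells of PP, and at most 23 on every other array. In PP, GL7+ TFH cells were at least 29.3-fold above Treg cells (adjusted p = 1.01e-07) and at least 38.2-fold above TFR cells (adjusted p = 2.44e-07). GL7+ TFH cells of PP were higher than those of pLN d12 by 3.78 (adjusted p = 5.66e-06). The d25 array, on a slide of its own so that day and slide cannot be told apart, was higher by 2.40 than the d12 arrays (adjusted p = 0.00326, but 0.0828 without slide 4 and 0.0505 with normexp background correction), and 1 of these d12 arrays was not well above background. Another Gc probe gave 3.41 between tissues (adjusted p = 0.00485) and 1.73 for d25 (adjusted p = 1, not called).

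Of 14 genes known to respond to vitamin D, 7 could be tested, and Cyp24a1, the most direct target of Vdr, was detected on no array. On pLN d12, 4 were higher and 0 lower in TFH cells relative to naive ones (9.27% and 5.48% of all tested probes), with a median of 4.44 against -0.09. In Treg relative to naive T cells the list median was 2.02, with 1 higher and 0 lower (3.76% of all tested probes called). In TFH relative to Treg cells it was 0.19, with 3 higher and 0 lower (10.5% called). Spp1 (osteopontin) was at 20 and 20 in naive T cells and 1007 and 1040 in TFH cells, at least 16.6-fold (adjusted p = 0.000207), and Cdkn1a, an inhibitor of the cell cycle, at 20 and 26 and at 715 and 440, at least 9.12-fold (adjusted p = 0.000433). In GL7+ TFH cells of PP, Spp1 read 41 and 88. Between these cells and TFH cells of pLN d12, 0 of the 7 were higher and 3 lower (Spp1, Il10 and Ccr10). The shares of all tested probes were 2.36% and 2.18%. Against Treg cells of PP, 1 of the 7 was higher in GL7+ TFH cells, Cdkn1a, and 1 lower, Il10, where 9.87% of all tested probes were called. Between TFR cells of PP and pLN, 0 of the 7 were higher and 1, Ccr10, was lower, against 5.74% and 5.39% of all tested probes. Il10 read 4527 and 3338 in PP Treg cells but 30 and 23 in GL7+ TFH cells, against 1212 and 503 and 1358 and 582 in pLN d12. In PP the GL7+ TFH cells were at least 134-fold below Treg cells (adjusted p = 3.96e-05), with Il10 not well above background in them.

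Other receptors that pair with Rxr proteins or bind retinoids were a list of 16, with 12 tested. In pLN TFH cells relative to naive ones, 3 were higher (Pparg, Nr4a2 and Rora) and 2 lower (Thra and Thrb), against 9.27% and 5.48% of all tested probes, with a list median of -0.01 against -0.09 over all tested probes. Rora rose from 445 and 495 to 3190 and 1992 (log2 fold change 2.43, adjusted p = 0.000551). Pparg, a lipid sensor, was higher in TFR than in Treg cells of pLN by 2.44 (797 and 592 against 171 and 94, adjusted p = 0.00123). Thrb, a thyroid hormone receptor, was lower in PP than in pLN TFR cells (log2 fold change -2.63, 20 and 28 against 126 and 171, adjusted p = 0.000588).

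Among 13 coregulators of nuclear receptors, all tested, no more than 2 were called in any comparison. These were 2 in TFR cells between tissues (11.1% of all tested probes), 1 in TFH against Treg (10.5%) and 1 in TFR against Treg cells of pLN (8.35%). The first 2 were Crebbp and Nrip1, higher in TFR cells of PP than of pLN by 1.82 and 1.13 (adjusted p = 0.0199 and 0.0182). Crebbp read 51480 on slide 4 and 17533 on slide 5, and leaving out the array on slide 4 brought it to 1.04 (adjusted p = 0.104). Leaving out either pLN TFR array also lost the call (0.0711 and 0.115), and another Crebbp probe gave 0.41 (adjusted p = 0.377). Nrip1 lost its call when any 1 of the 4 arrays was left out (adjusted p 0.0518 to 0.0964), while another probe gave 1.93 (adjusted p = 0.0176). Ncoa3 was lower in TFH than in Treg cells of pLN and Kat2b lower in TFR than in Treg cells (log2 fold changes -1.18 and -1.21, adjusted p = 0.0181 and 0.0372). Another Ncoa3 probe gave -1.27 (adjusted p = 0.00252). Kat2b lost its call without any of its 4 arrays (adjusted p 0.0887 to 0.217) and Ncoa3 without 3 of its 4 (0.0757 to 0.121).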

How the data were processed

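Sorted CD4 T-cell RNA was hybridised to one-colour Agilent arrays. The deposited scanner files (Agilent Feature Extraction 10.7.3.1, per the labels) hold, for each printed feature, a background-subtracted intensity and other columns of quality marks that the authors deposited unchanged. The authors also deposited a matrix of intensity, averaged over features, quantile normalised, scaled and rounded, which served as an alternative. Here features marked as outliers or with a pixel coefficient of variation above 0.5 were left out, the 4 features of a probe were averaged, and the means were quantile normalised. They were then multiplied so that the 75th percentile became 1500, given a lower limit of 20 and log2 transformed. An array detected 43.0% to 58.0% of its probes, with none saturated, and the number of arrays limits the precision.

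1 model with 12 group means was fitted to 20 arrays (limma 3.58.1, R 4.3.3, 8 residual degrees of freedom; tested on simulated data first) and 19 comparisons were made, with two-sided p-values adjusted by Benjamini-Hochberg over the 22264 probes that some group of 2 detected on both its arrays. A d25 group, with its lone array, was taken to have the spread of the rest. Where the dimmer group was below background on all its arrays, "at least" gives the fold against the lowest detected intensity of each such array. Where a list gene had several probes, the 1 with the highest mean stood for it. The members and all gene lists were chosen with earlier results of these data known. The text names all members, the 5 probes most like each called member, at most 4 called genes per list by the size of change, and Asb2 and Fut7. Symbols came from RefSeq by accession (27508 probes matched) for names only. Alternatives were the authors' matrix, normexp background, scaling alone, all features, no detection filter, the compared groups alone, leaving out slide 4 or 1 array, and slide as a block. A result of the list of other receptors is not reported here.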

Additional observations from a re-analysis of the deposited data

Results flagged for a closer look

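For 4 results the difference between PP and pLN d12 itself differed between cell types by limma's test of that difference. For Vdr it was larger in TFR than in TFH cells by 4.49 (adjusted p = 0.00332). Vdr was higher in PP on both TFR arrays (1653 and 1983 against 72 and 115), and the TFH ranges of the tissues overlapped. For Dhrs3 it was larger in TFR than in TFH cells by 2.28 (adjusted p = 0.00609) and larger in Treg than in TFH cells by 3.51 (adjusted p = 0.000436). Without slide 4, which leaves 1 array per PP group, these were 2.60 and 3.56. The ranges of PP and pLN d12 did not overlap in any of the 3 cell types. The single d25 TFH array, at 8159, lay within the range of GL7+ TFH cells of PP. For Rara A_55_P2095345 the change from Treg to TFR cells was more negative in PP by -1.79 (adjusted p = 0.0179), with 836 and 822 in TFR against 4914 and 4100 in Treg cells in PP and 4951 and 4255 against 7451 and 6887 in pLN. No group held enough arrays to look for a single array that stands apart.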

How the results depend on the processing

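Of 40 called differences of single probes of the 7 genes, 15 held in every alternative and 28 in every one other than the fit to the compared groups alone. Over all of these, 434 of 496 values stayed called and 0 changed sign. Of the 34 values checked for list genes, 357 of 418 alternatives stayed called and 0 changed sign. Among values not called, the tissue difference of Vdr in TFH cells (-0.17) was 0.00171 without slide 4 and -0.35 to 0.00171 with 1 array left out, and that of Rarg for TFH against naive (-0.16) was -0.37 to 0.0492 with 1 array left out.

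The count of called probes moved as follows. With the compared groups alone, where few arrays are left to estimate the spread, it fell to 0 for Treg against naive, TFR against TFH in pLN, TFR against Treg and TFR against TFH in PP, Treg and TFH between tissues and the tissue difference of TFR against Treg and against TFH. It then called 0 of all 22264 probes in each of these but the tissue difference of TFR against Treg (21 probes), so these falls were not limited to the members. In that fit it was 3 for TFH against Treg (3.17% of all tested probes) and 1 for TFR against Treg in pLN (2.63%). For TFR between tissues it was 3 (2.91%). Without slide 4, which leaves 1 array per PP group, it was 2 for TFR against Treg in PP, 1 for Treg between tissues, 3 for the test among all groups, and 0 for TFR against TFH in PP, TFH between tissues and the 3 tests of tissue differences. With normexp it was 0 for TFR against TFH in PP, where the calls among all tested probes fell from 765 to 605. For the tissue difference of TFR against Treg it was 3, where all calls rose from 122 to 154. No detection filter gave 2 for this difference, with 128 of 39429 probes called. With slide as a fixed block it was 2 for TFR against TFH in PP (6.18% of all tested probes called against 3.44%). For the tissue difference of TFR against Treg it was 5, namely Vdr, Dhrs3, both Rara probes and Rarg (4.58% called against 0.548%). For that of Treg against TFH it was 2 (3.38% called against 0.323%). With slide as a random block it was 1 for Treg between tissues. The shares of all tested probes without slide 4, with the random block and with 1 array left out are not given here. Changes of the count in those fits are therefore not read as results about the members.

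Leaving out 1 array at a time gave 4 to 5 probes for TFH against naive, 1 to 3 for Treg against naive, 5 for TFH against Treg, 2 for TFR against Treg and 5 for TFR against TFH in pLN. In PP it gave 4 for TFH against Treg, 4 for TFR against Treg and 0 for TFR against TFH. Between tissues it gave 1 to 2 for Treg, 1 for TFH and 4 to 5 for TFR cells, and 0 to 1, 2 and 1 for the tissue differences of TFR against Treg, TFR against TFH and Treg against TFH. The labels give no replicate numbers, so arrays were paired by slide, and the fixed block above is that paired fit. Scaling alone moved the median of all tested probes by less than 0.1, the furthest by -0.084 for TFR between tissues, and changed no direction of a called member. Signal under the lowest detected intensity of an array, 20 to 144, is not resolved, which limits Vdr in naive and Treg cells, Rxra and Cyp27b1.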

Other observations

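The markers of the sorted cells can be set beside the receptors. In PP TFR cells the summed intensity of 5 Treg markers was 58481 and 73245 on slides 4 and 5, and that of 4 follicular markers was 465215 and 389441. The B cell sum on these arrays was 172972 and 13442 and the epithelial sum 17144 and 2749, while Vdr read 1653 and 1983 and Dhrs3 10793 and 15052. The part of such cells in these levels was not tested.

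Myeloid and dendritic markers, 8 in all, summed to 2140 to 4835 on slide 4 against 660 to 1422 on slide 5. On slides 1 to 3 this sum was 784 to 3733. Those of stroma and endothelium (6) summed to at most 4777 and those of CD8 T and NK cells (4) to at most 6890.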
